A study of Mus musculus with 6 samples.

Results

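Aminoacyl-tRNA synthetases are the enzymes that join each amino acid to its tRNA. Their messenger RNAs were measured in mouse trigeminal ganglion, the sensory ganglion of the head. The 37 genes were chosen by name: every protein-coding entry whose symbol is the letter of an amino acid followed by "ars", with Eprs, Farsa and Farsb. They are 37 of the 16415 listed genes, 20 for enzymes of the cytosol and 17, with symbols ending in "ars2", for enzymes of mitochondria. Bulk poly(A)-selected libraries came from 3 samples labelled NC-up and 3 labelled SETDB2-up. All 6 are labelled wild type, and the labels neither spell out the names of the treatments nor say how, how long or at what age they were given. Whether the libraries stem from different animals is not stated; p-values therefore reflect only how much these libraries vary, which may be technical.

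A synthetase recognises its amino acid and the matching tRNA, activates the amino acid with ATP and transfers it to the end of the tRNA, which then enters the ribosome. Several cytosolic synthetases sit together in the multisynthetase complex on the scaffold proteins Aimp1, Aimp2 and Eef1e1, while most of the others work outside it and Vars binds subunits of the elongation factor eEF1. Mitochondria translate their own messenger RNAs with a separate set of synthetases that are encoded in the nucleus and imported; Gars and Kars serve both compartments from a single gene, and mitochondrial glutaminyl-tRNA is made by an amidotransferase, so no Gars2, Kars2 or Qars2 gene exists. When amino acids run short, the kinase GCN2 senses uncharged tRNA and the transcription factor ATF4 raises many cytosolic synthetase genes. Inherited variants in several cytosolic synthetases cause peripheral neuropathy of the Charcot-Marie-Tooth type, and variants in mitochondrial ones cause brain, heart, ear or ovary disease.

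The deposited values, called normalised reads here, are read numbers per gene scaled by the authors with 1 factor for each library. Undoing that scaling gave 19334997 to 23501386 reads per library. Setdb2 itself read 69.9, 58.4 and 71.5 in NC-up against 113, 97.6 and 104 in SETDB2-up. By the test described in the next paragraph, 7.71% of all genes tested rose and 8.71% fell. The 14 sensory neuron markers were all present, and 2 of them rose and 1 fell. Their summed level of 489542 to 514578 in NC-up overlapped that of 488264 to 508391 in SETDB2-up. Of 7 satellite glia markers 1 rose and 1 fell. Of 5 fibroblast markers 2 fell, of 5 red blood cell markers 1 fell, and no macrophage marker was called. Endothelial markers (1 of 5 fell) summed to 2718 to 2892 in NC-up against 2593 to 2672 in SETDB2-up. Of 9 liver markers 8 rose, with sums of 33.5 to 45.6 in NC-up and of 2632, 6206 and 83.9 in SETDB2-up libraries 1, 2 and 3. Keratinocyte markers (4 of 5 fell) summed to 173 to 518 against 114 to 127, muscle markers (3 of 4 measured fell) to 97.5 to 244 against 34.2 to 93.7, and Schwann cell markers (3 of 7 fell) to 291196 to 304982 against 258625 to 293651. The part of these in the synthetase values was not tested, apart from the values given without SETDB2-up libraries 1 and 2.

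All 37 synthetase genes were measured, with 94 to 9055 recovered reads per library, and all passed the filter on low values. Between the groups 3 of them rose and none fell: Lars2 and Rars2, which make the mitochondrial leucyl- and arginyl-tRNA synthetases, and Rars, which makes the cytosolic arginyl-tRNA synthetase. A gene was called changed at a Benjamini-Hochberg adjusted p under 0.05 in limma, fitted to log2(value + 1) over all 16387 genes tested. By that rule 7.71% of all genes tested rose and 8.71% fell, so the share of synthetases that rose, 8.11%, was close to that of genes in general. At an unadjusted p under 0.05, 8 synthetases were higher and 2 (Vars and Yars2) lower, where 14.9% and 15.7% of all genes were. EdgeR on the recovered reads also called 3 and 0, where it called 7.4% of all genes higher and 9.08% lower. The median log2 fold change was 0.00 over the 37 genes, 0.02 over the cytosolic and -0.03 over the mitochondrial ones, and 0.00 over all genes. In bulk samples, less RNA per cell and fewer cells of a type cannot be told apart.

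**Figure D1:**
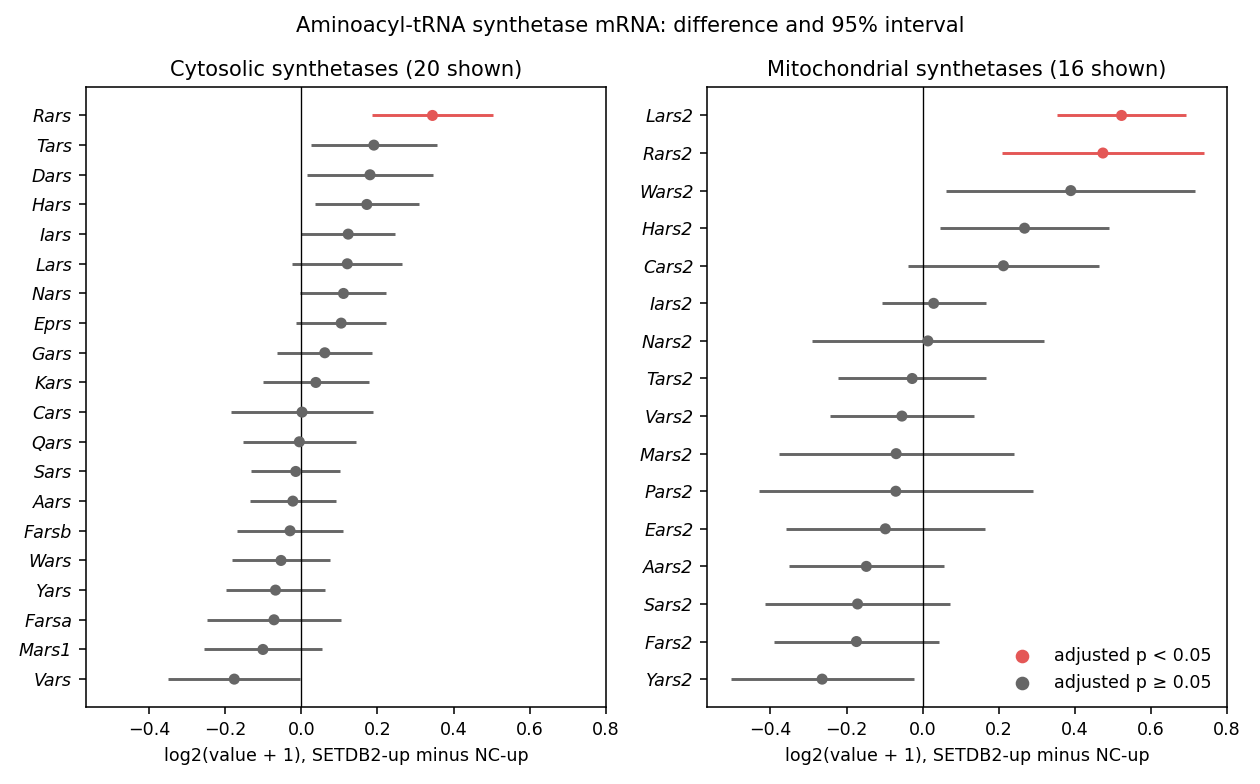
Difference between SETDB2-up and NC-up on the log2(value + 1) scale for the 20 cytosolic (left) and 16 of the 17 mitochondrial (right) synthetase genes; points are limma estimates from 3 libraries a group, and bars are 95% intervals. Rars, Lars2 and Rars2, in red, are past the threshold, and most of the other intervals cross 0.

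Among the 8 cytosolic enzymes of the multisynthetase complex, 1 rose (12.5%, against 7.71% of all genes). Rars (chromosome 11, 35808381 to 35834528, GRCm38) read 699, 662 and 655 in NC-up against 849, 864 and 847 in SETDB2-up. Each SETDB2-up library lay above each NC-up library, and the SETDB2-up values were close together. The means were 672 ± 23.7 and 853 ± 9.02 (SD, n = 3 each), a 1.27-fold rise and a log2 difference of 0.34 (SE 0.08; limma adjusted p = 0.00475). The call was kept in 14 of 16 alternatives, with adjusted p from 0.00107 to 0.168. It was lost after a correction for the GC content of transcripts (0.22 ± 0.07 SE, adjusted p = 0.0931) and without SETDB2-up libraries 1 and 2, which held the liver transcripts (0.33, adjusted p = 0.168).

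The other 7 enzymes of the complex did not pass the test. Log2 fold changes were 0.18 for Dars (aspartate), 0.12 for Iars (isoleucine), 0.12 for Lars (leucine, also a leucine sensor for the growth kinase complex mTORC1), 0.10 for Eprs (glutamate and proline, joined in a single protein), 0.04 for Kars (lysine), -0.01 for Qars (glutamine) and -0.10 for Mars1 (methionine). The median over the 8 was 0.11, against 0.00 over all genes, and after GC correction it was 0.016, against 0.0078. The scaffold genes did not pass either, with 0.24 for Eef1e1 (limma adjusted p = 0.127), 0.07 for Aimp1 and 0.06 for Aimp2. Part of the Iars transcript, 1656 bases, is shared at 96.0% with the pseudogene Gm4849, so its count is uncertain where reads could be split.

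Where 7.71% of all genes rose and 8.71% fell, none of the 12 cytosolic synthetases outside the complex was called. Their median was -0.02, and at an unadjusted p under 0.05 there were 2 higher (Tars and Hars) and 1 lower (Vars). The 3 most abundant, Nars, Gars and Wars, did not pass the test. Per kilobase of transcript, the only scale on which levels of different genes are compared here, the NC-up libraries ranked Nars (2273 ± 18.5 normalised reads per kilobase) first, then Gars (1869 ± 128), Wars (1538 ± 14.9) and Aars (1412 ± 12.9; SD, n = 3). Neighbours in this order lay farther apart than their SDs. Cars was the lowest of the cytosolic genes, at 166 ± 8.29.

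Nars, for asparagine, read 5865, 5901 and 5960.3 normalised reads in NC-up against 6566, 6485 and 6097 in SETDB2-up. All SETDB2-up values were higher, by a mean log2 of 0.11 ± 0.05 (SE; limma adjusted p = 0.173). Gars, for glycine, read 4484, 4126 and 4733 against 4603, 4569 and 4733 (0.06 ± 0.06, adjusted p = 0.520). The ranges overlapped nearly in full. Wars, for tryptophan, read 2777, 2831 and 2808 against 2506, 2767 and 2848 (-0.05 ± 0.06, adjusted p = 0.600). The groups overlapped, with SETDB2-up library 1 the lowest of the 6.

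The remaining cytosolic enzymes outside the complex had log2 fold changes of 0.19 for Tars (threonine), 0.17 for Hars (histidine), 0.00 for Cars (cysteine), -0.01 for Sars (serine), -0.02 for Aars (alanine), -0.03 for Farsb and -0.07 for Farsa (the subunits of the phenylalanine enzyme), -0.07 for Yars (tyrosine) and -0.18 for Vars (valine). Their limma adjusted p ran from 0.0794 for Hars to 0.992 for Cars. Vars read 1719, 1978 and 1758 in NC-up against 1390, 1685 and 1769 in SETDB2-up, so the groups overlapped. Without SETDB2-up library 3, Vars was called lower (-0.25, adjusted p = 0.0321), and after GC correction its sign changed (0.07). Farsb overlaps Sgpp2 on the opposite strand over 2332 bases and Sgpp2 had 3.49 times its reads. Because no source used here gives the strand setting of the counting, the Farsb value is uncertain.

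The 7 cytosolic genes listed here for links to inherited neuropathy, Aars, Gars, Hars, Kars, Mars1, Wars and Yars, held no call in either direction. The list may not be complete. Their median log2 fold change was -0.02, with the highest value in Hars (0.17) and the lowest in Mars1 (-0.10). Of all genes tested, 7.71% rose and 8.71% fell, so the absence of calls among 7 genes is not particular to them. In Yars and Mars1 every SETDB2-up library lay below every NC-up library, though by little: Yars read 2311, 2323 and 2299 against 2056, 2275 and 2291, and Mars1 855, 875 and 918 against 815, 807 and 847. Neither difference was past the threshold (limma adjusted p = 0.495 and 0.384).

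The 13 cytosolic genes listed as ATF4-induced are Aars, Cars, Eprs, Gars, Iars, Lars, Mars1, Nars, Sars, Tars, Vars, Wars and Yars. They held no call either, with a median of 0.00, where 7.71% of all genes rose and 8.71% fell. Promoters of 27 synthetase genes are in RefSeq's promoter entries for GRCm38.p6. In the 250 bases before the start, 3 of them hold the amino acid response core TGATGNAA, to which ATF4 binds, on either strand: Aars, Gars and Tars. Of all 32817 promoters of this length 3.45% hold it. The 3 promoters are shown because they carry this element in genes that the test did not call; capitals mark it and every other motif searched. These are, 5′ to 3′ on the gene's strand, Aars (chr8:111033592-111033841, +), Gars (chr6:55037751-55038000, +) and Tars (chr15:11399659-11399908, -).
Aars: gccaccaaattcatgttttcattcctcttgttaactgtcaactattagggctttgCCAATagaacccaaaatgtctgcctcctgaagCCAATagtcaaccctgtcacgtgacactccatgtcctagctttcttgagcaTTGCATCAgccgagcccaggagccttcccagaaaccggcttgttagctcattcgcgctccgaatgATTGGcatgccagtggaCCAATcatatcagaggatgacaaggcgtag
Gars: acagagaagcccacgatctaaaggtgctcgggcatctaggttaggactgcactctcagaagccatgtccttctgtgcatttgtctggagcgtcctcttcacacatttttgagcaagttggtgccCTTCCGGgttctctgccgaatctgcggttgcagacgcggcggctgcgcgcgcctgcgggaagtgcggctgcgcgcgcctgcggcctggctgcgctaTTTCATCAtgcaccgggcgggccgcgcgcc
Tars: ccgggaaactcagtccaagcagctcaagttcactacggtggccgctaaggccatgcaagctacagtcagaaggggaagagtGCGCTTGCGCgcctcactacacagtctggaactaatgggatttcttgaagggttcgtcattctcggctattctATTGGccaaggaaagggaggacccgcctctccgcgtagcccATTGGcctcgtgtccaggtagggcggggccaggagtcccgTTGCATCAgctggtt

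In these sequences the element reads TTGCATCA, TTTCATCA and TTGCATCA, on the strand opposite to that of the motif, beginning 112, 30 and 15 bases before the start. The other motifs searched, on both strands, were the NRF1 motif (2 of 27, Kars and Tars, against 3.73% of all promoters), CCGGAAG, an ETS site (7 of 27, against 6.90%), and CCAAT (12 of 27, against 33.8%). No 2 of the motifs overlap in the letters shown. The element was in no promoter of the 14 mitochondrial genes with an entry. In the 3 genes with it, the log2 fold changes were -0.02, 0.06 and 0.19 for Aars, Gars and Tars. Aars (5120, 5149 and 5212 against 4916, 5041 and 5292) and Gars had overlapping groups, whereas Tars (754, 782 and 884 against 941, 893 and 923) was higher in every SETDB2-up library, with a limma adjusted p of 0.107. A match is a description of these letters and not a measured site of binding. The start meant here is that of the RefSeq entry. For Aars the window shown lies inside the span listed for the gene, 111027778 to 111055569 on chromosome 8.

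Among the 17 mitochondrial synthetases, Lars2 and Rars2 rose (11.8%, against 7.71% of all genes). Lars2, for leucine (chromosome 9, 123366927 to 123462675), read 4509, 4771 and 5509.8 in NC-up against 6251, 6960.2 and 8080.1 in SETDB2-up. Every SETDB2-up library was higher than every NC-up library, although both groups were spread widely and library 3 was the highest of each. The means were 4930 ± 519 and 7097 ± 922 (SD, n = 3 each), a 1.44-fold rise and a log2 difference of 0.52 (SE 0.08; limma adjusted p = 0.000323). This was the only synthetase called in all 16 alternatives, with log2 fold changes from 0.43 to 0.72 and adjusted p no higher than 0.00568. It was 0.52 ± 0.08 after GC correction too (adjusted p = 0.000914), and the call was kept without SETDB2-up libraries 1 and 2.

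Stretches of the Lars2 transcript are shared with other transcripts. Near the 3′ end of its transcript of 3894 bases, 97 bases match the unclassified transcript AA474408 at 94.8% and 72 bases match the antisense transcript Gm15564 at 98.6%. Gm15564 itself read 81.6, 33.5 and 56.3 in NC-up against 55.1, 48.8 and 83.0 in SETDB2-up, did not pass the test (0.17, limma adjusted p = 0.734) and was far below Lars2 in reads. Lars2 had no match among 37 transcripts of the mitochondrial chromosome. Only GENCODE M21 transcripts were searched, and no separate search against nuclear ribosomal RNA was made. No source used here says how multiply mapping reads were counted, and the part of these matches in the Lars2 rise was not tested. None of the 16 alternatives changed how shared reads were counted.

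Rars2, for arginine (chromosome 4, 34614957 to 34660167), read 232, 186 and 222 in NC-up against 313, 265 and 310 in SETDB2-up. The groups did not overlap, and library 2 was the lowest of each. The means were 213 ± 24.3 and 296 ± 26.4 (SD, n = 3 each), a 1.39-fold rise and a log2 difference of 0.47 (SE 0.13; limma adjusted p = 0.0149). It was called in 11 of 16 alternatives. The call was lost without NC-up library 2 (0.38), without SETDB2-up library 1 (0.43), without SETDB2-up libraries 1 and 2 (0.54), and in both fits with GC correction (0.33 ± 0.12 SE, adjusted p = 0.149 in the fit without a block), with adjusted p of up to 0.206 over the 16.

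**Figure D2:**
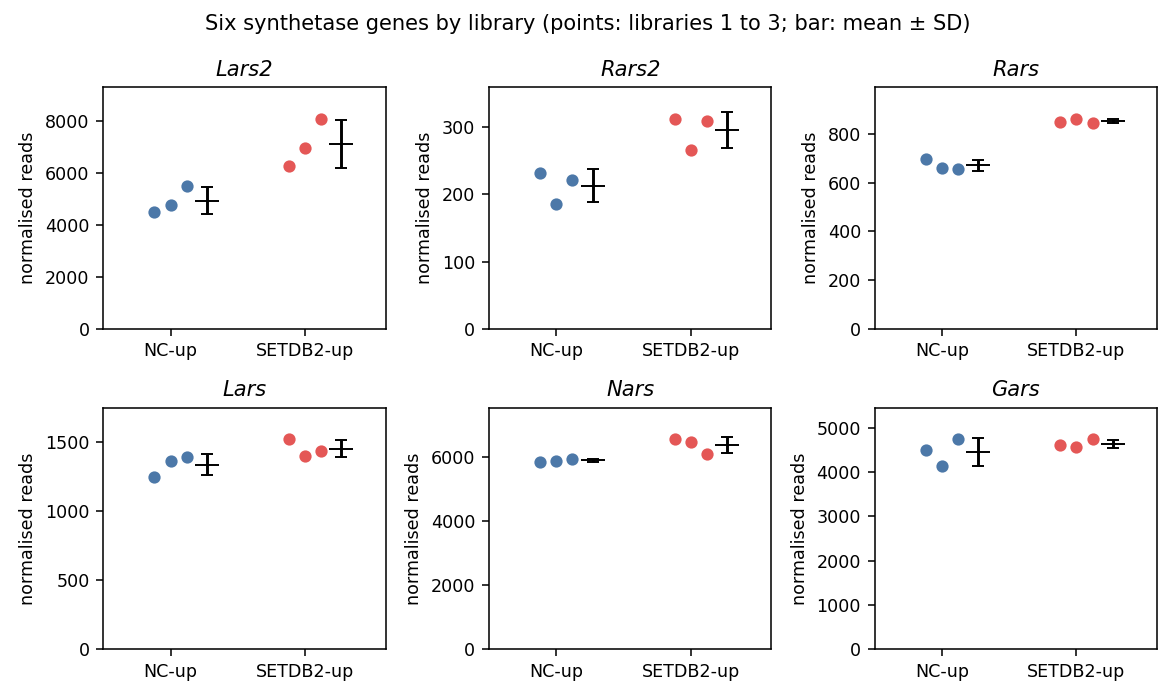
Normalised reads in each library (points, libraries 1 to 3 from left to right) with the mean ± SD of 3 libraries (black), for the 3 genes that rose, for Lars, the cytosolic partner of Lars2, and for Nars and Gars, the most abundant cytosolic genes. Axes start at 0; the groups are apart for Lars2, Rars2 and Rars, by less for Lars and Nars, which did not pass the test, and overlap for Gars.

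The start of Rars2 lies 6 bases from that of Orc3, a subunit of the origin recognition complex that is transcribed the other way. Orc3 rose as well, from 749, 728 and 737 to 985, 917 and 866 (log2 difference 0.32, SE 0.08; limma adjusted p = 0.00830), and after GC correction it no longer passed (0.16, adjusted p = 0.237). The genes share 7 bases, so reads over this overlap cannot be assigned, but they are a small part of either. In all, 12 synthetase genes have a divergent neighbour with a start within 1000 bases, in 11 distinct pairs, and in 7 of the 11 both genes had the same sign. Signs differed for Ears2 and Ubfd1, Fars2 and Lyrm4, Wars and Wdr25, and Yars and S100pbp. The share of same signs among such pairs of other genes was not computed, so the 7 of 11 has nothing to be read against. Hars and Hars2 are each other's neighbour, with starts 3 bases apart, and their SETDB2-up libraries were all higher: Hars read 2355, 2125 and 2387 against 2698, 2417 and 2619.9 (0.17, adjusted p = 0.0794) and Hars2 358, 361 and 295 against 411, 411 and 394 (0.27, adjusted p = 0.0917).

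The promoters of Lars2 (chr9:123366677-123366926, +) and Rars2 (chr4:34614707-34614956, +) are shown because these are the synthetases past the threshold that have an entry in RefSeq; Rars has none. All letters are in lower case, since none of the 4 motifs occurs in these windows. They hold 15 and 23 CpG dinucleotides and 59.2% and 64.8% GC.
Lars2: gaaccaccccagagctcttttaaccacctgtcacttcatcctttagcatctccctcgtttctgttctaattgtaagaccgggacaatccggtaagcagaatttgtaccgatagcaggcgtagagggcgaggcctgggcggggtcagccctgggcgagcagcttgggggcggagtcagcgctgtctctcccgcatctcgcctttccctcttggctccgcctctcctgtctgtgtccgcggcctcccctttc
Rars2: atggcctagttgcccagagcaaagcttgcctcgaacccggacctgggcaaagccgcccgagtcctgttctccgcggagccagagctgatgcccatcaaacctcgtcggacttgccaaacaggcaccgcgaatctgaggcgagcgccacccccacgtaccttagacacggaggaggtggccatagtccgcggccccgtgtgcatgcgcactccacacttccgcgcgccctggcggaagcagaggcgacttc

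The other 15 mitochondrial synthetases did not pass the test. Among those higher in SETDB2-up by estimate were Wars2 (tryptophan, 0.39), Hars2 (0.27), Cars2 (cysteine, also a maker of persulfides, 0.21), Iars2 (isoleucine, 0.03) and Nars2 (asparagine, 0.01). Lower by estimate were Tars2 (threonine, -0.03), Vars2 (valine, -0.05), Mars2 (methionine, -0.07), Pars2 (proline, -0.07), Ears2 (glutamate, -0.10), Aars2 (alanine, -0.15), Sars2 (serine, -0.17), Fars2 (phenylalanine, -0.17) and Yars2 (tyrosine, -0.26). The signs of Aars2, Ears2, Iars2, Mars2, Nars2, Pars2, Sars2, Tars2 and Vars2 changed in at least 1 alternative. Wars2 read 145, 122 and 122 against 185, 181 and 145 and was called without SETDB2-up library 3 (0.50, limma adjusted p = 0.0452). Yars2 read 316, 409 and 357 against 280.2, 299 and 317 and was called lower without NC-up library 1 (-0.36, adjusted p = 0.0491).

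The mitochondrial genes next in level per kilobase, Iars2 and Tars2, did not pass the test. Iars2 read 1989.5, 2195 and 2263 in NC-up against 2242, 2092 and 2238 in SETDB2-up (limma adjusted p = 0.805), and Tars2 672, 708 and 585 against 707, 597 and 622 (adjusted p = 0.874). Both had overlapping groups. Summed over the 17 genes, the mitochondrial set went from 12137 ± 648 to 14354 ± 995 normalised reads (SD, n = 3 each), 1.18 times as much. Without Lars2 the sums were 7207 ± 145 and 7257 ± 175, a ratio of 1.01. The cytosolic sum was 45147 ± 673 and 46534 ± 422, a ratio of 1.03.

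The precision of the 34 genes not called differed by compartment. The 95% interval of the difference lay within 1.25-fold in either direction for 16 of 19 cytosolic genes and for 4 of 15 mitochondrial genes, and within 1.5-fold for 33 of the 34. Half-widths ran from 0.11 to 0.36 on the log2 scale. Mitochondrial genes had fewer reads, and the median coefficient of variation among NC-up libraries was 10.5% for them and 4.68% for cytosolic genes.

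Levels differed between the compartments. The median in NC-up was 556 normalised reads per kilobase for cytosolic and 138 for mitochondrial genes. In 14 pairs of genes named with the same letter, the cytosolic gene was higher in 12, with a median ratio of 4.18. Phenylalanine, with the cytosolic subunit genes Farsa and Farsb, was left out, as were glutamate and proline, which share Eprs. Eprs was 6.79 ± 0.92 times Ears2 and 15.2 ± 1.06 times Pars2 in NC-up (SD, n = 3). Among the 14 pairs the order was as follows. The ratio was highest for Wars over Wars2, at 52.8 ± 5.66 in NC-up, and next for Nars over Nars2, at 38.4 ± 7.20 (SD, n = 3). It was near 1 for Tars over Tars2 (1.14 ± 0.21) and Cars over Cars2 (1.22 ± 0.13).

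In leucine and isoleucine the order was the other way round. Lars2 was 3.76 ± 0.24 times Lars per kilobase in NC-up and 5.01 ± 0.78 times in SETDB2-up. Iars2 was 1.29 ± 0.11 times Iars in NC-up (SD, n = 3 throughout). Lars read 1251, 1366 and 1396 in NC-up against 1522, 1403 and 1437 in SETDB2-up. The matching bases described for Lars2 enter this ratio too. Lars2 stood at 1266 ± 133 normalised reads per kilobase in NC-up, above the other mitochondrial genes, of which Iars2 had 605 ± 40.1 and Tars2 273 ± 26.4. Wars2 was the lowest, at 29.4 ± 3.08.

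**Figure D3:**
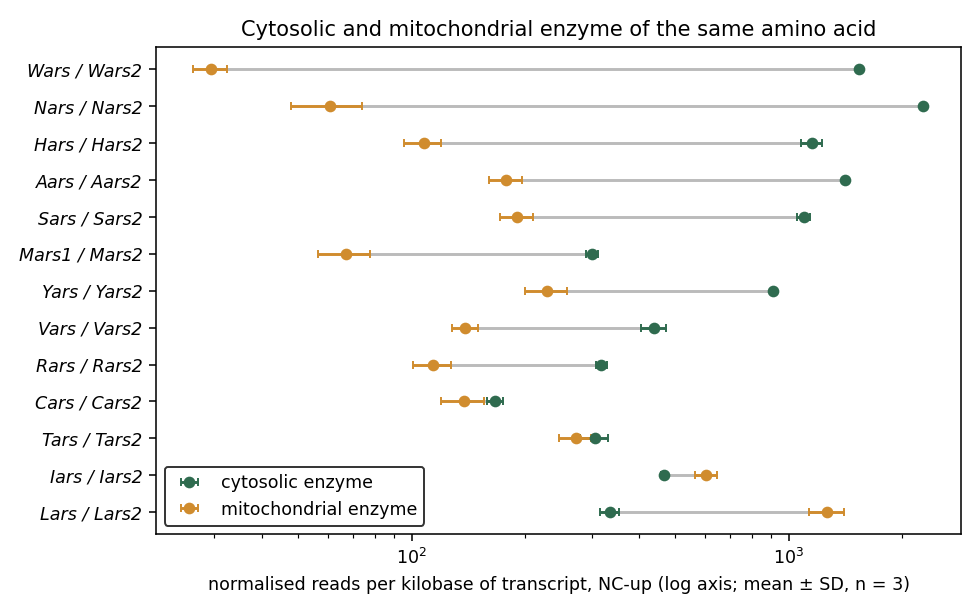
NC-up level per kilobase of transcript (log axis, mean ± SD of 3 libraries) of the cytosolic (green) and mitochondrial (orange) synthetase gene of the same amino acid, for 13 of the 14 pairs, ordered by their ratio. The cytosolic gene is higher in 11 of the 13 drawn, and Lars2 and Iars2 are the exceptions.

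The differences followed the base composition of the transcripts, as those of all genes did. Across the 37 synthetases, Pearson's r between transcript GC content and log2 fold change was -0.65 (Spearman's rho -0.73), and across 15513 genes it was -0.42; genes of the same libraries are not independent replicates. Of the 14 synthetases with under 50% GC, 12 were higher by estimate and their median log2 fold change was 0.15, against 0.13 for all such genes. Of the 23 with 50% GC or more, 16 were lower and the median was -0.05, against -0.10 for all such genes. Calls divided in the same way over all genes: 16.0% of those under 50% GC rose and 1.94% fell, whereas 1.12% of the others rose and 14.3% fell.

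Genes whose groups did not overlap were also mostly of low GC content when SETDB2-up was higher. SETDB2-up was higher throughout in 12 of 37 synthetases (32.4%, against 16.8% of all genes), among them Dars, Eprs, Hars, Iars, Lars, Nars, Rars, Tars, Hars2, Lars2 and Rars2. It was lower throughout in 2, Yars and Mars1 (5.41%, against 16.4% of all genes). Of the 12, 10 had under 50% GC, where 32.0% of all genes were higher throughout, and 10 of the 14 synthetases were. After GC correction, r across the 37 genes was 0.00 and Lars2 alone was called, where 1.53% of all genes rose and 3.13% fell. Rars, Rars2 and Hars were then at 0.22, 0.33 and 0.15, and Cars2, at 0.34 (adjusted p = 0.119), had the next highest value after Lars2. The libraries' GC trend was removed by a smooth curve, and what set it was not tested.

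**Figure D4:**
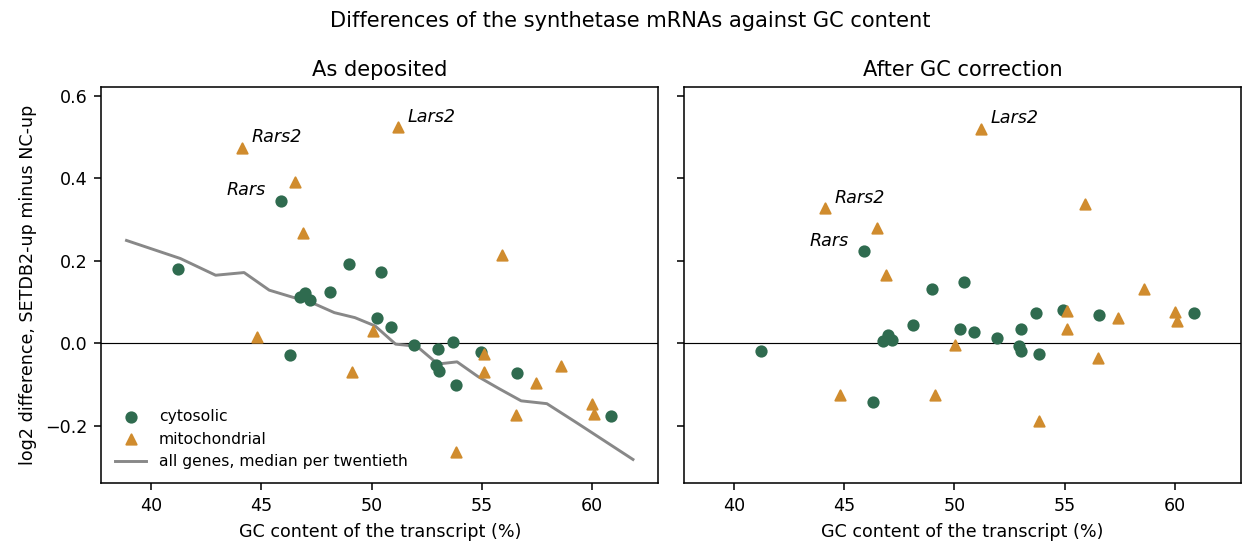
Log2 difference between SETDB2-up and NC-up against the GC content of the transcript for 20 cytosolic (circles) and 16 of the 17 mitochondrial (triangles) synthetases, as deposited (left; grey line, median of all genes in twentieths of GC content) and after GC correction (right). At left the synthetases fall with GC content as the line does, and Lars2 lies well above the line; at right they do not. Over all 37 genes r is -0.65 and 0.00.

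The other genes of tRNA charging and of its stress response were read from lists of named members. Of 27 measured genes of the ATF4 amino acid response, none rose and 2 (7.41%) fell, where 7.71% of all genes rose and 8.71% fell, so the share that fell was close to that of genes in general. Cebpb, a transcription factor of the C/EBP family, read 316, 378 and 376 in NC-up against 155, 237 and 144 in SETDB2-up (log2 difference -1.03, SE 0.16; limma adjusted p = 0.000288) and was called in all 16 alternatives. Slc7a5, the light chain of the large neutral amino acid transporter, fell by 0.25 (adjusted p = 0.0485) and was called in 8 of them. The median of the list was 0.01. Atf4 itself had 2302, 2253 and 2319.6 against 2421, 2203 and 2504 normalised reads (0.05, adjusted p = 0.633), and Asns, asparagine synthetase, had 0.16 (adjusted p = 0.107).

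Among 9 measured eIF2 kinases and their partners, 2 rose (22.2%, against 7.71% of all genes) and none fell: Eif2s1, the subunit of eIF2 that the kinases phosphorylate (0.30, limma adjusted p = 0.0155), and Impact, an inhibitor of GCN2 signalling that neurons express (0.24, adjusted p = 0.0301). Of 26 amino acid transporters, 3 rose (11.5%, against 7.71% of all genes) and 1 fell (3.85%, against 8.71%). Slc7a2, a carrier of arginine and lysine, read 1983, 2062 and 2286 against 2734, 2649 and 2700.2, with no overlap (0.35, adjusted p = 0.00106). Slc38a9, the lysosomal arginine sensor of mTORC1, rose by 0.32 (adjusted p = 0.00659) and Slc7a14, a lysosomal member of the cationic amino acid transporter family, by 0.28 (adjusted p = 0.00467), and Slc7a5 is the one that fell. Of these, only Cebpb was still called after GC correction, at -0.58 (adjusted p = 0.0355). Atf5, an ATF4 target and relative singled out after its values were seen, was called only with that correction (0.29, adjusted p = 0.0311, against 0.02 and 0.906 without it).

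The next 3 lists held few calls, which are read against the 7.71% of all genes that rose. Of 10 proofreading and synthetase-like genes 1 (10.0%) rose, Tarsl2, a cytosolic threonyl-tRNA synthetase outside the naming rule (718, 728 and 827 against 934, 887 and 894; 0.26, limma adjusted p = 0.0312). Of 27 genes of tRNA maturation and export 1 (3.70%) rose, Rpp38, a protein of ribonuclease P (0.35, adjusted p = 0.0166). Of 14 cytosolic elongation factors 2 (14.3%) rose: Eif5a2 (0.34, adjusted p = 0.000499) and Eef1a1, which delivers charged tRNA to the ribosome (0.27, adjusted p = 0.00308). No gene of these lists fell, and none of the 4 was called after GC correction.

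In the mitochondrial translation list, 2 of 20 (10.0%) rose and none fell, close to the 7.71% of all genes that rose. Cdk5rap1, which modifies mitochondrial tRNAs, read 83.7, 107 and 124 in NC-up against 182, 149 and 161 in SETDB2-up (0.65 ± 0.17 SE; limma adjusted p = 0.0144) and was also called after GC correction (0.64, adjusted p = 0.0369). Gfm1, the mitochondrial elongation factor G, rose by 0.21 (limma adjusted p = 0.0499). Gfm1 was called neither by edgeR with TMM nor after GC correction. The list's median was 0.12, against 0.00 over all genes, and after GC correction 0.083, against 0.0078.

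The table also lists 12 transfer RNAs of the mitochondrial chromosome, which were looked up after the table had been seen. Libraries made by poly(A) selection are not designed to capture mature tRNAs, and reads of mature tRNAs and of longer precursors cannot be told apart here. Of the 12, 3 (25%) rose and none fell, where 7.71% of all genes rose. No GC content was available for these rows, so they were not part of the GC correction. Over all genes the share that rose differed with GC, at 16.0% under 50% and 1.12% from 50% on. The 25% therefore has no share of genes of like GC beside it. TrnM, for methionine, read 81.6, 66.1 and 69.7 in NC-up against 179, 128 and 199.9 in SETDB2-up (1.19 ± 0.19 SE; limma adjusted p = 0.000389). TrnR, for arginine, the substrate of the Rars2 enzyme, read 48.7, 44.1 and 49.2 against 97.8, 77.3 and 79.4 (0.82 ± 0.22 SE; adjusted p = 0.0141). TrnL1, a leucine tRNA and substrate of the Lars2 enzyme, read 313, 281 and 242 against 399, 393 and 338 (0.44 ± 0.12 SE; adjusted p = 0.0156), while TrnL2, the other leucine tRNA, read 69.9, 40.2 and 54.5 against 37.0, 57.0 and 58.0. Groups of all 3 that rose were apart, and those of TrnL2 overlapped. Mars2, the enzyme for TrnM, did not pass the test, at -0.07. The 16S ribosomal RNA mt-Rnr2, which lies next to TrnL1, read 6951, 6797 and 8025 against 8329, 8151 and 8317 (0.19, adjusted p = 0.0396).

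Wars is known as a gene induced by interferon, and 4 of 17 measured interferon-responsive genes fell (23.5%, against 8.71% of all genes), while none rose. Tap1, a peptide transporter, read 442, 259 and 271 in NC-up against 192, 177 and 236 in SETDB2-up (-0.65, limma adjusted p = 0.0131). Oasl1 (-0.92, adjusted p = 0.0351), Rsad2 (-0.56, adjusted p = 0.0435) and Psmb9 (-0.61, adjusted p = 0.0479) fell as well, and NC-up library 1 was the highest of the 6 in each of the 4. After GC correction only Rsad2 of these was called (-0.71, adjusted p = 0.0318). Wars did not share that order, with 2777 in NC-up library 1 and up to 2848 in the others. The list's median log2 fold change was -0.38, with 16 of the 17 below 0, against 0.00 over all genes. After GC correction the median was -0.47, against 0.0078.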

How the data were processed

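Messenger RNA was measured in 6 libraries of mouse trigeminal ganglion, 3 labelled NC-up and 3 SETDB2-up. Per the labels' protocols, TRIzol RNA was selected for poly(A) and made into strand-specific paired-end libraries. The submitters' processing notes name HISAT2, FastQC and GRCm38; no source used here gives the counter, its strand setting, the annotation or the scaling method. The deposited values are a normalised signal per gene: read counts divided by the authors by 1 factor per library, as the values show (100% came out as whole reads within 0.001 read).

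Limma (3.58.1, R 4.3.3; mean-variance trend) was fitted to log2(value + 1) after removing 28 of 16415 genes that did not reach 1 in 3 or more libraries, which left 16387, with Benjamini-Hochberg adjustment over all of them. The scale understates changes of low genes. Transcript length and GC came from GENCODE M21 principal transcripts, restricted to the span the table gives (12 synthetases were shortened by this). The GC correction removed a loess trend (span 0.3) per library over 15513 genes. Alternatives were edgeR (4.0.16, TMM or RLE) and DESeq2 (1.42.0) on recovered reads, limma-voom, a pseudocount of 0.1 and no filter. Others were the replicate block, the GC correction with or without it, and leaving out libraries. A 1.5-fold minimum was applied to counts of genes only and is not among the 16 alternatives run for each gene. The scripts were tested on simulated data. Promoters were RefSeq's for GRCm38.p6; 10 synthetase genes had no entry.

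Between replicates, the chi-square divided by its degrees of freedom was 3.97 to 9.93, above sampling noise. Members and lists were chosen with earlier results of these data known. The rule for names was: every synthetase; per-library values for those past the threshold and the 3 highest per kilobase in each compartment; in other lists up to 4 genes past the threshold, or the 2 of smallest p. Other values given by library (such as Hars, Vars, Wars2, Yars2 and Atf4), and the naming of Asns, were chosen after they were seen. The values of 1 mitochondrial synthetase gene are counted in the totals but not reported here.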

Additional observations from a re-analysis of the deposited data

How the results depend on the processing

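Of 592 synthetase values under the 16 alternatives, 522 kept sign and side of the threshold, 7 lost the call, 6 gained it and 57 changed sign, in 17 genes of which none was called. Counts in the main analysis were 1 cytosolic and 2 mitochondrial genes that rose, 0 that fell, 2690 of all genes and 17 listed pathway genes changed. GC correction gave 0 and 1 that rose, 722 of all genes (32.8% of them rises, against 47.0%) and 4 listed genes. Without SETDB2-up libraries 1 and 2 there were 0, 1, 447 and 4, a fit whose SETDB2-up spread is borrowed from NC-up. With a minimum of 1.5-fold there were 0, 0, 436 and 5. Leaving out single libraries gave 1 cytosolic and 1 to 3 mitochondrial genes that rose, 0 to 1 that fell in each compartment, 1082 (without SETDB2-up library 1) to 3335 (without SETDB2-up library 3) of all genes and 5 to 26 listed genes. The causes were not tested.

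Whether same-numbered libraries are pairs is not stated, and the values do not settle it. Deviations of same-numbered libraries correlated weakly, at 0.04, 0.04 and 0.05. Those of differently numbered libraries correlated at -0.035 to -0.0056, so each library correlated best with its own number. With the replicate block 2 cytosolic genes rose (Hars was added) and 1 fell (Vars), with 3618 of all 16387 genes (1695 rose and 1923 fell) and 26 listed genes changed; with GC correction and the block together there were 2 and 1 that rose and 1599 of all genes.

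Signs changed as follows. Under GC correction, with or without the replicate block, log2 fold changes were 0.080 for Aars, 0.075 for Aars2, -0.018 for Dars, 0.061 for Ears2, 0.068 for Farsa, -0.0042 for Iars2, -0.13 for Nars2, 0.035 for Pars2, 0.013 for Qars, 0.035 for Sars, 0.054 for Sars2, 0.078 for Tars2, 0.073 for Vars and 0.13 for Vars2. Without SETDB2-up libraries 1 and 2 they were 0.036 for Aars, -0.090 for Cars, 0.022 for Mars2, -0.045 for Nars2, 0.058 for Pars2, 0.0049 for Sars and 0.022 for Wars. On recovered reads Nars2 was at -0.010 with edgeR TMM, -0.0072 with RLE, -0.0062 with DESeq2 and -0.0055 with voom, and Cars at -0.0026 with edgeR TMM and -0.0030 with voom. With single libraries left out, the values that changed sign in at least 1 case ran from -0.052 to 0.0013 for Aars, from -0.037 to 0.048 for Cars, from -0.026 to 0.067 for Iars2, from -0.16 to 0.055 for Mars2, from -0.10 to 0.18 for Nars2, from -0.15 to 0.072 for Pars2, from -0.051 to 0.038 for Qars, from -0.043 to 0.017 for Sars, from -0.11 to 0.031 for Tars2 and from -0.091 to 0.0011 for Wars. Intervals were widest for the mitochondrial genes, with half-widths of up to 0.36.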
